A study of Mus musculus with 20 samples.

Results

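Natural killer (NK) cells were set against naive T cells on 6 of the 20 arrays of the series, 2 arrays each of NK cells, naive CD4 T cells and naive CD8 T cells. The arrays were chosen by their labels, and each difference is the mean of the NK arrays minus the mean of the naive CD4 and naive CD8 group means, so that both naive types weigh the same. The cells came from wild-type C57Bl/6 mice, CD45.1 per the series text, aged 12 to 14 weeks and female per the labels. No treatment is given for these 3 groups. Between 25000 and 50000 cells were sorted for a sample by fluorescence-activated cell sorting, material from 4 samples was pooled for an array, and the RNA went through in vitro transcription before it was labelled. The sources used here do not give the surface markers of the sorts. Naive CD8 array 1 is titled CD48+, and its source name gives CD8+. The whole series asks which genes mark each of 10 blood cell types, and this comparison asks how a lymphocyte that can kill without priming differs from lymphocytes that have not yet met antigen.

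NK cells are innate lymphocytes. They read target cells through many germline-encoded activating and inhibitory receptors, among them the lectin-like Klr families, and kill with preformed granules of perforin and granzymes. Naive T cells recognise peptide through 1 rearranged receptor that signals through the CD3 chains, recirculate through lymph nodes with the help of CCR7, and acquire effector functions only after priming. Both cell types descend from lymphoid progenitors and use overlapping signalling molecules.

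Values are log2 expression values as the authors deposited them, made with the GCRMA method. A difference of 1 is 2-fold, and ± gives the standard error (SE) of each fitted difference, with n = 2 NK arrays and 4 naive T arrays. The SE and p rest on the spread between replicates in all 10 cell types of the series. They can therefore be wider or narrower than the 6 arrays alone would give. A gene was called when the limma p adjusted by Benjamini-Hochberg over 9810 tested genes was under 0.05 and the difference was at least 1 in size. Values under about 5 lie near the background of the arrays, so a difference against such a level gives a direction but no exact size. The arrays are pools of sorted cells, and fewer cells of a type and less RNA per cell cannot be told apart in them.

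The NK arrays correlated at 0.985 with each other over the genes tested, the naive CD4 arrays at 0.970 and the naive CD8 arrays at 0.982. Each NK array correlated between 0.882 and 0.901 with the naive arrays, lower than any pair of naive arrays. Genes apart by more than 1 between replicate arrays numbered 599 in NK, 1326 in naive CD4 and 643 in naive CD8 cells. All 8 NK marker genes tested were called higher in NK cells, and 8 of 9 T cell markers lower. A gene was tested when at least 2 of the 20 arrays exceeded 5. Genes such as Klre1, Klrk1, Ncr1, Klrb1f, Klhl30 and Clnk met this through the NK arrays alone, so their higher calls were nearly fixed by the filter. Some libraries stood apart from their labels or their replicate. The Y-linked genes Eif2s3y and Kdm5d read 12.84 and 10.73 in naive CD4 array 1 and 11.76 and 9.30 in naive CD8 array 1, against at most 3.36 in the NK arrays and the other naive arrays, although the labels give female mice. The X-linked Xist read 4.28 in naive CD4 array 1, 9.88 in naive CD8 array 1 and 10.47 to 12.31 in the NK arrays and the other naive arrays. Naive CD4 array 2 held granulocyte transcripts, with 10.75 for S100a8 and 8.83 for Lcn2, and the haemoglobin beta probe set read 11.99 there and 9.35 in naive CD8 array 2, against 2.26 to 2.41 elsewhere. NK array 1 read higher than NK array 2 for macrophage genes such as Csf1r and Lyz2. Values are therefore also given without these arrays where that ended a call of NK cells against naive T cells or moved a count by more than 1.5 times. For single genes called between the naive types, whether the call held without an array is not given.

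NK cells and naive T cells differed at 1697 of the 9810 genes tested. NK cells were higher at 819 genes, 8.35% of those tested, and lower at 878, or 8.95%. The median difference over all genes tested was -0.06. Higher calls had a median size of 2.10, and 138 of them reached at least 4. Among lower calls the median size was 1.85 and 118 reached that size. For 174 genes called higher, all 4 naive arrays lay under 5, and for 275 genes called lower both NK arrays did. The NK and naive arrays did not overlap for 800 of the higher and 821 of the lower calls, against 20.5% and 24.6% of all genes tested. Leaving out NK array 1 reduced the higher calls to 492 and the lower calls to 591, and leaving out NK array 2 gave 714 and 600. Among the higher calls 530 were also called against each naive type by itself, 126 against naive CD4 T cells alone and 128 against naive CD8 T cells alone. For lower calls these numbers were 508, 90 and 250. Taken against naive CD4 T cells by themselves, NK cells were higher at 735 genes (7.49%) and lower at 647 (6.6%), and against naive CD8 T cells higher at 724 (7.38%) and lower at 966 (9.85%).

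**Figure D1:**
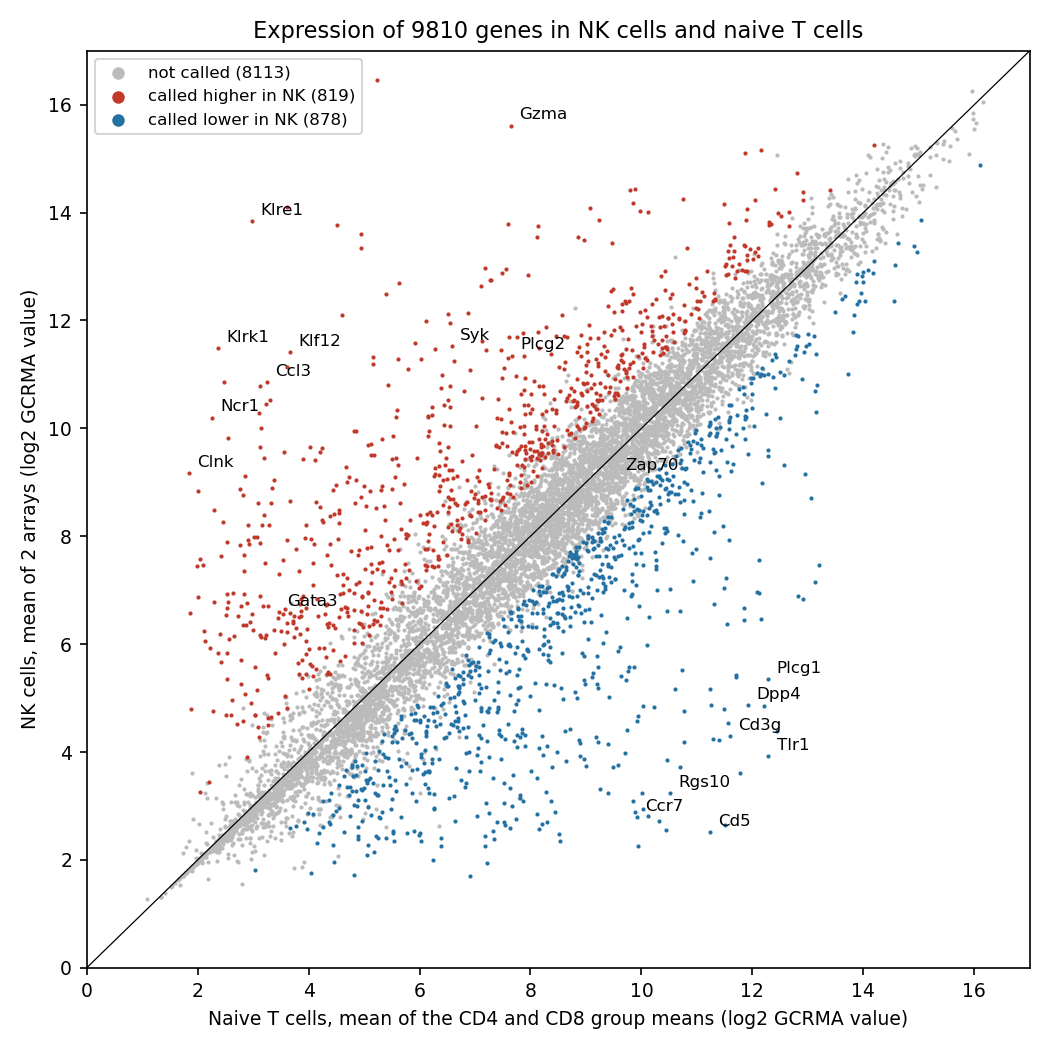
Mean log2 GCRMA value of each of the 9810 tested genes in naive T cells (horizontal) and NK cells (vertical), with the 819 genes called higher in NK cells in red and the 878 called lower in blue. Klre1, Klrk1 and Ncr1 lie far above the line of equal values with naive levels near background, Gzma reached the top of the scale, and Plcg1, Cd5, Cd3g and Tlr1 lie far below it.

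Lectin-like receptors of the NK gene complex gave the largest differences of the comparison. Of 30 listed genes 19 had a probe set of their own and 14 were tested. NK cells were higher at 11 of these (78.6%, against 8.35% of all genes), and the other 3 did not pass. Their median difference was 5.38, against -0.06 over all genes. Genes such as Klre1 and Klrk1 passed the filter for testing through the NK arrays alone. The share and the median therefore describe the list and do not test it. Klre1, a receptor of NK cells that works with KLRI partners, read 13.68 and 13.99 in the NK arrays, against 2.79 and 2.73 in the naive CD4 and 3.01 and 3.37 in the naive CD8 arrays. Both NK arrays were near the top of the scale and all 4 naive arrays near background, a difference of 10.86 ± 0.27, adjusted p = 4.03e-12. Klrk1, the activating receptor NKG2D for stress-induced ligands, read 11.87 and 11.10 in the NK arrays, against 2.29 and 2.58 in the naive CD4 and 2.28 and 2.29 in the naive CD8 arrays. Its difference was 9.13 ± 0.22, adjusted p = 3.36e-12, again with no overlap and all naive arrays at background. Klrb1a, a member of the NKR-P1 family, was as widely apart at 10.49 ± 0.20, adjusted p = 6.95e-13, and its relative Klrb1f at 7.66 ± 0.15, adjusted p = 6.95e-13. The shared probe set of Klrb1b and Klrb1c, the gene of the NK1.1 antigen, read 12.65 and 11.80 in the NK arrays, against 1.93 to 1.94 in the naive arrays.

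The Ly49 receptors, encoded by the Klra genes, bind MHC class I in the mouse. Klra8, the activating Ly49H receptor for a cytomegalovirus protein, had 16.51 and 16.39 in the NK arrays, against 3.88 and 3.73 in the naive CD4 and 7.19 and 6.16 in the naive CD8 arrays. Its difference of 11.21 was the largest of the lectin-like list. Klra5 and Klra7 were higher by 5.37 and 2.78. Probe sets of the Klra family can bind transcripts of near-identical copies, so the share of each copy is uncertain. Klrg1, an inhibitory receptor for cadherins, read 13.13 and 12.79 in the NK arrays, against 6.55 and 5.79 in the naive CD4 and 10.31 and 7.60 in the naive CD8 arrays. It lay above 5 on all naive arrays, highest on naive CD8 array 1, and differed by 5.40 ± 0.58, adjusted p = 1.40e-05. Klrd1, the CD94 chain that pairs with NKG2 receptors, was high in both lineages at 14.90 and 14.58 in the NK arrays, against 11.52 and 11.51 in the naive CD4 and 14.06 and 14.11 in the naive CD8 arrays. Its difference was 1.94 ± 0.48, adjusted p = 0.0105, and it lost its call without NK array 1. Klrc1, the NKG2A partner of CD94, differed between the naive types and is described with them.

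Promoters of 6 genes are shown because they belong to receptors and granzymes of the largest differences, and to the T lineage factor gene Bcl11b, and because each holds 1 of the motifs searched. Each line gives the 250 bases before the gene's start from RefSeq on GRCm38.p6, 5′ to 3′ on the strand of the gene. Capitals mark the RUNX motif TGTGGTT or its reverse complement AACCACA in the first 5, and the TCF/LEF motif CTTTGAA in Bcl11b.
Klre1, chr6:129577963-129578212, plus strand: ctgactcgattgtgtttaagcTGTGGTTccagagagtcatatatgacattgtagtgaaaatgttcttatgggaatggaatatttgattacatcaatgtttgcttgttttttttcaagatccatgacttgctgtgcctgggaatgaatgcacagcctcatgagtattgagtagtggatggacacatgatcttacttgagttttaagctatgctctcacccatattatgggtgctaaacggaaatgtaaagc
Klrk1, chr6:129623865-129624114, minus strand: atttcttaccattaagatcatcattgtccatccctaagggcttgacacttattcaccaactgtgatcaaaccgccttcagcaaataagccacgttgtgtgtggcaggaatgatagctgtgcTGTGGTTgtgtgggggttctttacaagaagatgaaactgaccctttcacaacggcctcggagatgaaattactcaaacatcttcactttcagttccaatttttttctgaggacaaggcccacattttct
Ncr1, chr7:4337465-4337714, plus strand: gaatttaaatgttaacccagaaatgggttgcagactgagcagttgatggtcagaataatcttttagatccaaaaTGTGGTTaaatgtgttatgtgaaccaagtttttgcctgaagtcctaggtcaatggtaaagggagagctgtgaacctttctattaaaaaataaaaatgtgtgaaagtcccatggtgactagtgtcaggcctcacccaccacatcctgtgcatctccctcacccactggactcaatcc
Gzma, chr13:113100982-113101231, minus strand: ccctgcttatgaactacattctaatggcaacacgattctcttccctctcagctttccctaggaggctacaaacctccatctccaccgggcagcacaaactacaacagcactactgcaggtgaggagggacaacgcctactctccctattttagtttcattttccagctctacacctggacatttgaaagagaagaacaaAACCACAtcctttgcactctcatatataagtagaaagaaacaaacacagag
Gzmb, chr14:56262335-56262584, minus strand: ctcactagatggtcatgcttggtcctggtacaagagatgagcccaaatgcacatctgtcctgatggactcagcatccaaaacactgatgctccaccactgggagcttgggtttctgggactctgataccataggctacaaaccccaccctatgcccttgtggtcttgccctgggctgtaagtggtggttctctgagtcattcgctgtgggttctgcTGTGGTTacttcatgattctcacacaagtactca
Bcl11b, chr12:108003415-108003664, minus strand: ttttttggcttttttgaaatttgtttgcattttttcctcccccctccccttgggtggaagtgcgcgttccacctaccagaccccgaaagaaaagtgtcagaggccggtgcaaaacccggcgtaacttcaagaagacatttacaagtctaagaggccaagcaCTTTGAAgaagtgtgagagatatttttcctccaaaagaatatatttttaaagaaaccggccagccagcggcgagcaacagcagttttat

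RUNX factors and the TCF/LEF factors both act in T and NK cell development. The RUNX letters began 229 bases before the start of Klre1, 129 before that of Klrk1, 176 before that of Ncr1, 51 before that of Gzma, on the reverse strand, and 34 before that of Gzmb. Of the 15 genes ranked highest in NK cells 12 had a window, and 4 of them held the motif on either strand. Over all genes called higher, 2.92% of 890 windows held it, against 4.28% of 911 windows of genes called lower and 3.28% of 10251 windows of the genes tested. Over all 32851 windows from RefSeq the share was 4.4%. The motif was thus no more frequent before genes higher in NK cells than before other tested genes, and the windows shown are a description of single promoters. The TCF/LEF letters stood in 2.92% of windows of genes called higher, 3.29% of genes called lower and 3.2% of genes tested. For the T-box motif TCACACC these shares were 2.47%, 3.18% and 2.71%, and for the ETS motif ACAGGAAG 2.81%, 2.85% and 2.87%. None of the 6 windows has been tested for binding here.

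Other receptors of NK cells moved in both directions. Of 26 tested, NK cells were higher at 7 (26.9%, against 8.35% of all genes) and lower at 5 (19.2%, against 8.95%). The other 14 did not pass, and the median difference was 0.44. Ncr1, the NKp46 receptor that defines NK cells in all mouse strains, read 10.58 and 9.82 in the NK arrays, against 2.28 and 2.24 in the naive CD4 and 2.24 and 2.26 in the naive CD8 arrays. All naive arrays were at background, and the difference was 7.95 ± 0.19, adjusted p = 3.36e-12. Cd244a, the 2B4 receptor of the SLAM family, read 13.91 and 13.66 in the NK arrays, against 8.06 and 7.84 in the naive CD4 and 7.67 and 6.83 in the naive CD8 arrays. On this probe set all naive arrays lay above 5 as well, at least 5 units below either NK array, for a difference of 6.19 ± 0.31, adjusted p = 5.95e-09. Another probe set of the gene read 11.45 and 10.88 in the NK arrays and 2.86 to 3.17, near background, in the naive arrays. Fcgr3, the low-affinity Fc receptor that lets NK cells bind antibody-coated targets, was higher by 5.18 ± 0.42, adjusted p = 9.25e-07. Cd160, a receptor for MHC class I and HVEM, was higher by 4.09 ± 0.27, adjusted p = 1.23e-07, and Cd7 and Crtam by 3.21 and 1.61. Other SLAM family members differed in direction. Slamf6 and Slamf1, which help to start helper responses in T cells, fell by 3.24 and 3.03 on the log2 scale. Slamf7, an activating receptor of NK cells, was higher by 2.97 ± 0.83, adjusted p = 0.0209, a call lost without NK array 1, NK array 2 or naive CD4 array 1. Without NK array 1, 1 member of this list was called lower, and 3 were without NK array 2 or without naive CD8 array 2.

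**Figure D2:**
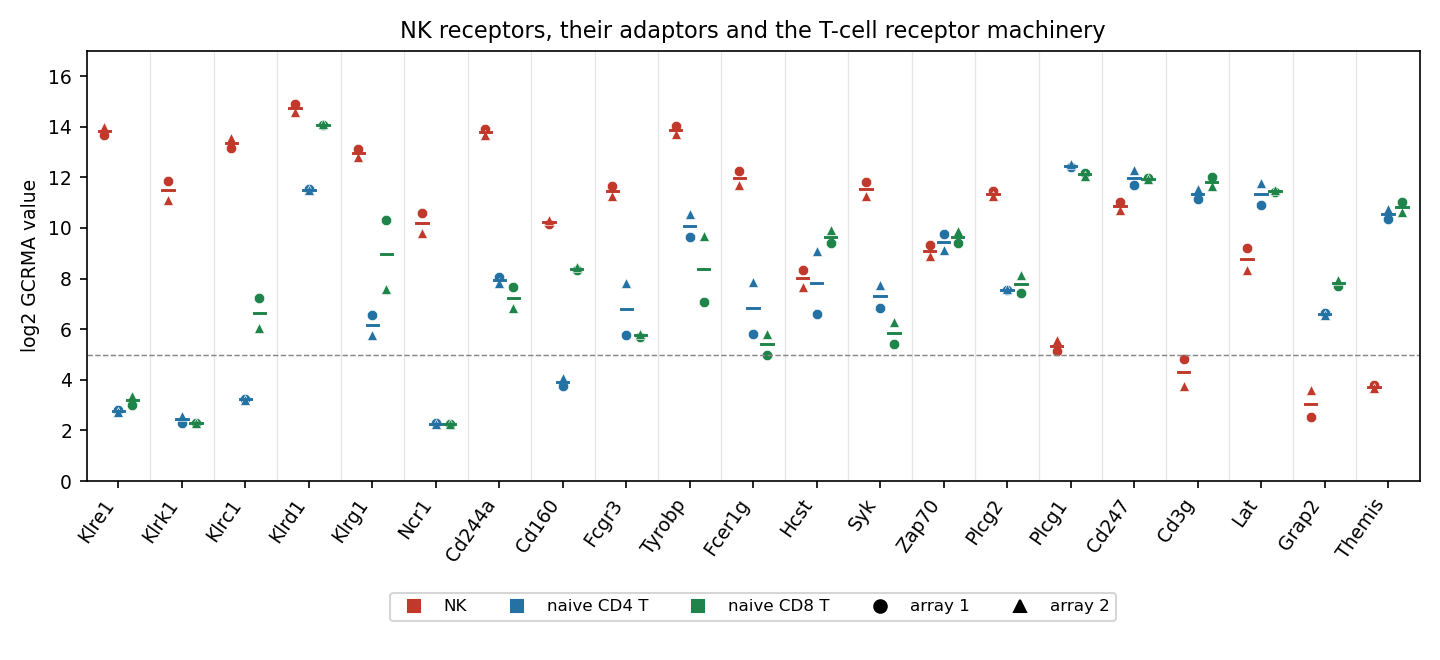
Log2 GCRMA values of 21 receptor and signalling genes on each array, with NK cells in red, naive CD4 T cells in blue and naive CD8 T cells in green, circles for arrays numbered 1, triangles for arrays numbered 2, bars for group means and a dashed line at 5. Klre1, Klrk1 and Ncr1 are at background in all naive arrays, Zap70 and Hcst overlap between the groups, and Plcg1 and Plcg2 lie in opposite order.

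Signalling next to the receptor divided by molecule. Many activating NK receptors signal through adaptors with ITAM motifs, which recruit the kinases SYK and ZAP70. Of 50 genes tested in this pathway NK cells were higher at 14 and lower at 9, and 27 did not pass, with a median difference of 0.15. Tyrobp, the DAP12 adaptor of activating Ly49 receptors, read 14.01 and 13.71 in the NK arrays, against 9.63 and 10.54 in the naive CD4 and 7.07 and 9.70 in the naive CD8 arrays. Naive T cells held transcripts of it as well, and the NK arrays were above each of them, with a difference of 4.63 ± 0.68, adjusted p = 2.27e-04. Fcer1g, the Fc receptor gamma chain that serves FCGR3 and NKp46, read 12.26 and 11.71 in the NK arrays, against 5.81 and 7.86 in the naive CD4 and 5.0 and 5.81 in the naive CD8 arrays, a difference of 5.87 ± 0.59, adjusted p = 7.84e-06. Without overlap, its naive CD4 array 2 was the highest of the naive arrays. Hcst, the DAP10 adaptor of NKG2D, read 8.34 and 7.68 in the NK arrays, against 6.59 and 9.09 in the naive CD4 and 9.40 and 9.90 in the naive CD8 arrays. Here the groups overlapped, with the NK arrays inside the range of the naive arrays, and the difference of -0.74 ± 0.56, adjusted p = 0.427 did not pass.

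The kinases and phospholipases of this pathway had different patterns. Syk read 11.80 and 11.25 in the NK arrays, against 6.85 and 7.76 in the naive CD4 and 5.43 and 6.30 in the naive CD8 arrays. The difference was 4.94 ± 0.38, adjusted p = 5.10e-07, with every naive array at least 3 units lower. Its relative Zap70 was at 9.32 and 8.89 in the NK arrays, overlapping the range of 9.14 to 9.88 in the naive arrays, and did not pass (-0.45 ± 0.47, adjusted p = 0.589). Plcg2, the phospholipase C gamma isoform of NK, myeloid and B cells, read 11.45 and 11.25 in the NK arrays, against 7.55 and 7.58 in the naive CD4 and 7.43 and 8.13 in the naive CD8 arrays. Plcg1, the isoform that T-cell receptor signals use, read 5.15 and 5.56 in the NK arrays, against 12.41 and 12.52 in the naive CD4 and 12.17 and 12.06 in the naive CD8 arrays. The 2 isoforms thus lay in opposite order, with differences of 3.68 ± 0.29, adjusted p = 5.60e-07 for Plcg2 and -6.94 ± 0.29, adjusted p = 8.80e-10 for Plcg1. Inpp5d, the SHIP1 phosphatase that inhibits NK receptors, and Sh2d2a, a T-cell specific adaptor, were higher by 1.58 and 1.51, and Dok2, an inhibitory adaptor, by 1.25. Smaller differences depended on single arrays, since only 8 members were called higher without NK array 1.

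The T-cell receptor complex and its co-receptors were lower in NK cells. Of 23 genes tested 15 were lower (65.2%, against 8.95% of all genes), 1 was higher and 7 did not pass, and the median difference was -2.64. The chains of the receptor come first. Cd3g read 4.83 and 3.76 in the NK arrays, against 11.15 and 11.54 in the naive CD4 and 12.03 and 11.64 in the naive CD8 arrays. Both NK arrays were under 5 and all naive arrays above 11, a difference of -7.30 ± 0.35, adjusted p = 3.76e-09. Cd3e was at 3.83 and 4.02 in the NK arrays and at 8.71 to 9.09 in the naive arrays, and Cd3d at 6.39 and 6.95 in the NK arrays and 10.68 to 12.43 in the naive arrays. Their differences were -4.98 ± 0.22, adjusted p = 1.50e-09 and -5.17 ± 0.30, adjusted p = 2.76e-08. The 3 genes are neighbours on chromosome 9 with no gene listed between them. Cd247, the zeta chain that also carries signals of NKp46 and FCGR3, was close in both lineages, at 11.01 and 10.69 in the NK arrays and 11.70 to 12.28 in the naive arrays. Its difference was -1.12 ± 0.34, adjusted p = 0.0336, a call lost under 10 of 20 alternative settings, among them each one that left out NK array 1, NK array 2, naive CD4 array 2 or a naive CD8 array.

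The list also holds downstream adaptors and inhibitory co-receptors. Lat, the scaffold that the activated receptor phosphorylates, read 9.20 and 8.33 in the NK arrays, against 10.92 and 11.77 in the naive CD4 and 11.43 and 11.49 in the naive CD8 arrays. NK cells kept a clear signal for it, with a difference of -2.64 ± 0.33, adjusted p = 5.70e-05 from naive T cells. Grap2, the GADS adaptor that links LAT to SLP-76, fell by 4.15 on the log2 scale, and Themis, a regulator of receptor signals in thymocytes, by 6.96. Cd5, a scavenger-type receptor that dampens T-cell receptor signals, read 2.47 and 2.55 in the NK arrays, against 11.37 and 12.18 in the naive CD4 and 10.64 and 10.74 in the naive CD8 arrays. It was at background on both NK arrays and above 10 on every naive array, at -8.72 ± 0.48, adjusted p = 1.53e-08. Cd6, a related receptor with 1 gene listed between it and Cd5 on chromosome 19, was at -7.68 ± 0.19, adjusted p = 3.36e-12. Btla, an inhibitory receptor for HVEM, and Trat1, a receptor-interacting adaptor, differed by -6.70 ± 0.73, adjusted p = 1.60e-05 and -5.83 ± 0.34, adjusted p = 3.30e-08. Cd8a and Cd8b1 differed by -4.92 and -4.66 against the mean of both naive types, with high levels in naive CD8 T cells alone. Ubash3b, a phosphatase that restrains receptor signals, was the member called higher, by 2.06 ± 0.39, adjusted p = 0.00169. The co-stimulatory receptors Cd28 and Cd27 did not pass. Cd28 read 9.35 and 9.74 in the NK arrays, against 10.59 and 11.21 in the naive CD4 and 9.83 and 9.50 in the naive CD8 arrays, an overlap of the NK range with that of naive CD8 T cells.

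Cytotoxic genes were higher in NK cells, in different degree against each naive type. Of 31 tested, 14 were higher (45.2%, against 8.35% of all genes) and 3 lower (9.68%, near the 8.95% of all genes). The other 14 did not pass, and the median difference was 0.90. Gzma, the granule tryptase granzyme A, was near the top of the scale in NK cells at 15.72 and 15.50 in the NK arrays, against 4.57 and 3.52 in the naive CD4 and 12.85 and 9.64 in the naive CD8 arrays. The naive CD8 arrays lay far above the naive CD4 arrays and differed from each other, and the NK arrays were above all of them, with a difference of 7.97 ± 0.98, adjusted p = 4.86e-05. Gzmb, granzyme B, which cleaves caspases in the target cell, read 12.73 and 12.27 in the NK arrays, against 3.99 and 3.97 in the naive CD4 and 9.64 and 4.01 in the naive CD8 arrays. Naive CD8 array 1 stood above the other 3 naive arrays, which were near background, and the difference was 7.10 ± 0.99, adjusted p = 1.53e-04. Nkg7, a granule membrane protein of killer cells, read 13.59 and 13.28 in the NK arrays, against 5.75 and 7.95 in the naive CD4 and 12.15 and 12.03 in the naive CD8 arrays, with the naive CD8 arrays nearer to the NK arrays than to the naive CD4 arrays, and differed by 3.97 ± 0.68, adjusted p = 8.32e-04. Prf1, which encodes perforin, was not tested because 1 of the 20 arrays exceeded 5 at its probe set, NK array 1 at 7.86. NK array 2 read 4.76 and the naive arrays 2.07 to 2.12.

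Other members of the cytotoxic list handle or resist granule proteases. Cst7, an inhibitor of granule cathepsins, and Ctsw, a cathepsin of killer cells, were higher by 2.79 ± 0.39, adjusted p = 1.67e-04 and 2.84 ± 0.23, adjusted p = 9.26e-07. Serpinb9, which protects the killer cell from its own granzyme B, read 13.01 and 12.74 in the NK arrays, against 5.63 and 7.21 in the naive CD4 and 8.94 and 8.18 in the naive CD8 arrays. The difference was 5.39 ± 0.45, adjusted p = 1.06e-06, and its relatives Serpinb9b and Serpinb6b were higher by 4.99 and 3.89. Stx11, a syntaxin needed for granule release, was higher by 3.34 ± 0.23, adjusted p = 1.83e-07. Fasl, the death ligand for FAS, read 13.05 and 12.44 in the NK arrays, against 9.30 and 8.40 in the naive CD4 and 6.98 and 4.41 in the naive CD8 arrays, and the difference was 5.47 ± 0.57, adjusted p = 1.05e-05. Fgl2, a secreted prothrombinase with immune functions, was higher by 5.46 ± 0.82, adjusted p = 2.71e-04. Srgn, the proteoglycan that packs granule contents, was at 11.68 and 11.81 in the NK arrays and 11.47 to 11.73 in the naive arrays and did not pass. Members called lower were Ctsh, a cathepsin (-4.40 ± 1.06, adjusted p = 0.00928, call lost without NK array 2), and the lymphotoxin genes Ltb (-3.22 ± 0.43, adjusted p = 9.71e-05) and Lta (-2.47 ± 0.77, adjusted p = 0.0369). The call of Lta was lost without either NK array or either naive CD8 array, and without NK array 2 only 1 member of the list was lower.

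**Figure D3:**
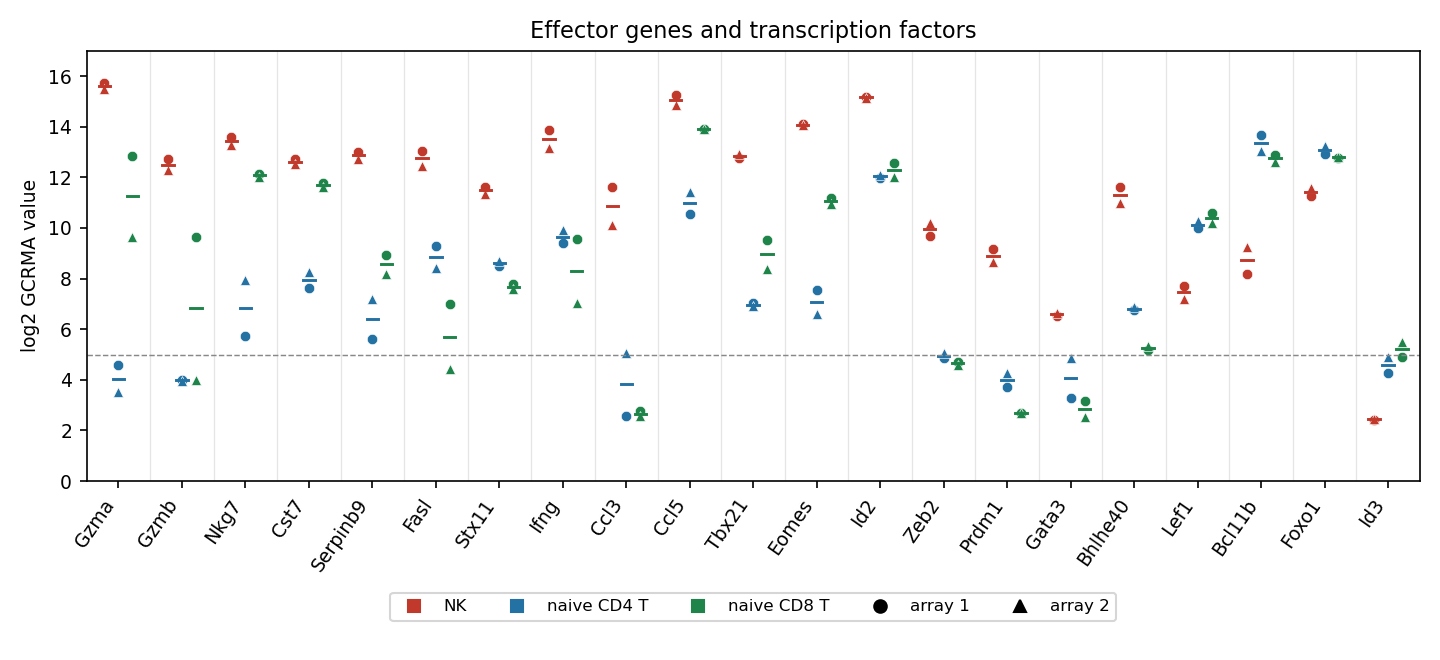
Log2 GCRMA values of 21 effector and transcription factor genes on each array, with colours and symbols for NK cells (red), naive CD4 T cells (blue) and naive CD8 T cells (green), circles for arrays 1, triangles for arrays 2, bars for group means and a dashed line at 5. For Gzma, Nkg7, Cst7, Ccl5 and Eomes the naive CD8 arrays lie between the NK and the naive CD4 arrays, while Bcl11b, Lef1, Foxo1 and Id3 are lower in NK cells.

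Among 24 chemokine and cytokine genes tested, NK cells were higher at 7 (29.2%, against 8.35% of all genes) and lower at 2 (8.33%, near the 8.95% of all genes). The other 15 did not pass, and the median difference was -0.04. The lower calls numbered 1 without either NK array or without naive CD8 array 2, and 4 without naive CD4 array 1. Ifng, the interferon gamma gene, read 13.86 and 13.14 in the NK arrays, against 9.40 and 9.92 in the naive CD4 and 9.55 and 7.02 in the naive CD8 arrays. All naive arrays were above 7 and below both NK arrays, and the difference was 4.53 ± 0.80, adjusted p = 0.00111. Ccl3, a chemokine that attracts monocytes and effector cells, read 11.61 and 10.11 in the NK arrays, against 2.59 and 5.07 in the naive CD4 and 2.75 and 2.59 in the naive CD8 arrays. Naive CD4 array 2 alone among the naive arrays reached 5, and the difference was 7.61 ± 1.03, adjusted p = 1.14e-04. Its neighbour on chromosome 11, Ccl4, was higher by 4.29 ± 0.37, adjusted p = 1.50e-06, and Xcl1, which attracts cross-presenting dendritic cells, by 5.66 ± 0.25, adjusted p = 1.55e-09. Il15, a survival factor of NK cells, was higher by 4.02 ± 0.41, adjusted p = 7.43e-06, and Tnfsf14, the LIGHT cytokine, by 2.68. Ccl5, a chemokine of T and NK cells, did not pass. It read 15.27 and 14.85 in the NK arrays, against 10.56 and 11.42 in the naive CD4 and 13.91 and 13.89 in the naive CD8 arrays (2.62 ± 0.89, adjusted p = 0.0539).

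Most transcription factors on the NK lineage list were higher in NK cells. Of 26 tested, NK cells were higher at 18 (69.2%, against 8.35% of all genes) and lower at 1 (3.85%, against 8.95%). The other 7 were not called, and the median difference was 2.30. The T-box factors Tbx21 and Eomes drive NK maturation. Tbx21 read 12.76 and 12.94 in the NK arrays, against 7.03 and 6.91 in the naive CD4 and 9.53 and 8.38 in the naive CD8 arrays. Eomes read 14.09 and 14.08 in the NK arrays, against 7.56 and 6.60 in the naive CD4 and 11.17 and 10.94 in the naive CD8 arrays. In both the order was NK, naive CD8, naive CD4 with no overlap, and the differences were 4.89 ± 0.33, adjusted p = 1.21e-07 and 5.02 ± 0.39, adjusted p = 5.15e-07. Id2, which blocks E proteins and is needed for innate lymphocytes, read 15.19 and 15.13 in the NK arrays, against 11.99 and 12.08 in the naive CD4 and 12.56 and 12.02 in the naive CD8 arrays. A high level in naive T cells on this probe set was exceeded with a difference of 3.0 ± 0.38, adjusted p = 6.12e-05. Its other probe sets were near background in the naive arrays, at 2.38 to 2.41 and 2.88 to 2.93. Zeb2, a zinc finger repressor that acts with TBX21 in NK maturation, differed by 5.14 ± 0.51, adjusted p = 6.71e-06, and Prdm1, the BLIMP1 repressor of effector lymphocytes, by 5.56 ± 0.32, adjusted p = 2.43e-08. Hhex, a homeobox factor, and Bhlhe40, a factor induced by cytokines, were higher by 5.67 ± 0.79, adjusted p = 1.41e-04 and 5.26 ± 0.65, adjusted p = 4.79e-05. Klf12 had the largest difference of the list at 7.74 ± 0.17, adjusted p = 2.00e-12, and read 11.38 and 11.44 in the NK arrays, against 3.95 and 3.57 in the naive CD4 and 3.58 and 3.59 in the naive CD8 arrays.

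Smaller differences of this list included Stat4, the signal transducer of interleukin 12, at 2.12 ± 0.42, adjusted p = 0.00252, and Runx3, a RUNX factor of killer lymphocytes, at 1.88 ± 0.38, adjusted p = 0.00277. Gata3, best known for helper T cells, was higher in NK cells as well. It read 6.54 and 6.65 in the NK arrays, against 3.29 and 4.88 in the naive CD4 and 3.15 and 2.53 in the naive CD8 arrays, with no naive array above 5, and differed by 3.13 ± 0.42, adjusted p = 9.96e-05. Nfil3, which starts NK development, differed by 2.32 ± 0.75, adjusted p = 0.0446, a call lost under 11 of 20 settings, among them each that left out an array. Maf and Zbtb16, higher by 2.41 and 2.77, were close to naive CD4 T cells in level, as described below, and Maf lost its call under 8 of 20 settings, among them those without either NK array, either naive CD4 array or naive CD8 array 2. Ets2 was the member called lower, at -2.98 ± 0.67, adjusted p = 0.00566, and the call was lost without NK array 2.

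Factors of the T lineage moved both ways. Of 29 tested, 6 were higher (20.7%, against 8.35% of all genes) and 5 lower (17.2%, against 8.95%). The other 18 did not pass, and the median difference was 0.18. Bcl11b, which keeps T cells from taking the NK fate, read 8.18 and 9.25 in the NK arrays, against 13.68 and 13.03 in the naive CD4 and 12.90 and 12.62 in the naive CD8 arrays. NK cells had a signal on this probe set, with a difference of -4.34 ± 0.80, adjusted p = 0.0014 from naive T cells. Its other probe sets had both NK arrays under 5, for example 2.32 and 2.36 where the naive arrays read 7.53 to 8.62. Whether NK cells retain the transcript is therefore uncertain. Lef1, a TCF/LEF factor of naive T cells, was at 7.72 and 7.19 in the NK arrays and 9.99 to 10.60 in the naive arrays (-2.81 ± 0.22, adjusted p = 5.26e-07). Foxo1, which maintains the naive homing programme, differed by -1.53 ± 0.38, adjusted p = 0.0104, a call lost without NK array 1. Id3 was at background in the NK arrays, 2.43 and 2.46, against 4.26 to 5.50 in the naive arrays, and differed by -2.45 ± 0.37, adjusted p = 2.69e-04. Tox2 differed by -2.10 ± 0.40, adjusted p = 0.00201. Regulators that both lineages need, Ikzf1 and Satb1, did not pass, at 13.57 and 13.34 in the NK arrays and 12.77 to 13.30 in the naive arrays for Ikzf1. The genes called higher beside Gata3 were Klf6, Klf7, Ikzf3, Ikzf5 and Tcf4. They were higher by 1.74, 1.41, 1.61, 1.12 and 1.75, and the count of higher members was 1 without either NK array, 2 without either naive CD8 array and 3 without naive CD4 array 2.

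Genes of naive homing, survival and quiescence were lower in NK cells at 15 of 28 tested (53.6%, against 8.95% of all genes). NK cells were higher at 1 (3.57%, against 8.35%), 12 were not called, and the median difference was -1.36. Ccr7, the receptor that leads cells into lymph nodes, read 2.73 and 2.86 in the NK arrays, against 9.75 and 9.99 in the naive CD4 and 10.18 and 9.76 in the naive CD8 arrays. Both NK arrays were at background and all naive arrays near 10, at -7.13 ± 0.23, adjusted p = 7.07e-11. Il7r, the receptor chain for the survival factor interleukin 7, read 10.92 and 11.10 in the NK arrays, against 13.69 and 13.80 in the naive CD4 and 13.59 and 13.85 in the naive CD8 arrays. The difference was -2.72 ± 0.57, adjusted p = 0.00354. Its other probe set read 3.62 and 3.14, near background, in the NK arrays and 6.01 to 7.88 in the naive arrays. A signal in NK cells thus rests on the probe set used. Il6st, the gp130 chain of interleukin 6 receptors, fell by 6.0 on the log2 scale. Dapl1, a gene related to death-associated proteins, differed by -7.60 ± 0.40, adjusted p = 1.05e-08, and Actn1, an actin cross-linker, by -5.93 ± 0.30, adjusted p = 6.39e-09. Pik3ip1, an inhibitor of phosphoinositide 3-kinase, differed by -3.66 ± 0.57, adjusted p = 3.62e-04. Klf2, which maintains quiescence and S1pr1 expression, read 10.94 and 10.26 in the NK arrays, against 8.66 and 10.11 in the naive CD4 and 10.48 and 10.31 in the naive CD8 arrays, overlapped and did not pass. Btg2, an antiproliferative gene, was the member called higher, by 1.57 ± 0.38, adjusted p = 0.00912, a call lost without NK array 1.

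Receptors that guide cells through tissues were divided. Among 11 tested sphingosine 1-phosphate receptors and enzymes 1 was called, higher in NK cells (9.09%, near the 8.35% of all genes). It was S1pr5, the receptor that lets NK cells leave bone marrow and lymph nodes. It read 13.92 and 13.30 in the NK arrays, against 3.20 and 3.10 in the naive CD4 and 8.11 and 5.36 in the naive CD8 arrays. Naive CD4 T cells were at background, naive CD8 T cells between the other groups, and the difference between NK and naive T cells was 8.67 ± 0.58, adjusted p = 1.21e-07. S1pr4, another receptor of the same lipid, read 9.57 and 9.34 in the NK arrays and 9.73 to 10.02 in the naive arrays and did not pass. Of 22 chemokine receptor genes tested, 4 were higher (18.2%, against 8.35% of all genes) and 5 lower (22.7%, against 8.95%) in NK cells. The median difference was -0.03. Cmklr1, a chemerin receptor, read 8.87 and 9.38 in the NK arrays, against 2.87 and 2.83 in the naive CD4 and 2.86 and 2.85 in the naive CD8 arrays, at 6.27 ± 0.17, adjusted p = 8.36e-12. Ccr2, the receptor for CCL2, differed by 4.31 ± 0.26, adjusted p = 3.48e-08. Lower genes were Ccr9, which guides cells to the gut, at -6.38 ± 0.38, adjusted p = 3.38e-08, and Gpr183, a receptor for oxysterols, at -4.39 ± 0.63, adjusted p = 1.99e-04. Cxcr6 differed by -2.43 ± 0.65, adjusted p = 0.0172, a call lost without either NK array or naive CD4 array 1. Cxcr3 differed by 1.22 ± 0.53, adjusted p = 0.127 and did not pass.

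Cytokine receptors and their signalling genes moved both ways. Of 38 tested, 11 were higher (28.9%, against 8.35% of all genes) and 10 lower (26.3%, against 8.95%). The other 17 did not pass, and the median difference was -0.02. Il2rb, the beta chain shared by the receptors for interleukins 2 and 15, averaged 10.80 ± 0.29 (SD, n = 2) in the NK arrays, against 2.97 and 5.12 in the naive CD4 and 7.36 and 6.25 in the naive CD8 arrays. The naive CD8 arrays lay above the naive CD4 arrays and the NK arrays above both, at 5.37 ± 0.45, adjusted p = 1.10e-06. Il18rap, the accessory chain of the interleukin 18 receptor, differed by 5.63 ± 0.75, adjusted p = 1.06e-04, while the ligand-binding chain Il18r1, 11.61 and 11.58 in the NK arrays and 10.0 to 10.32 in the naive arrays, did not pass. Il10ra was higher by 4.74 ± 0.28, adjusted p = 3.38e-08, Il12rb1, a chain of the interleukin 12 receptor, by 2.34 ± 0.42, adjusted p = 0.00124, and Kit, the stem cell factor receptor, by 3.31 ± 0.40, adjusted p = 3.68e-05. Among lower genes were Csf2rb, the common beta chain of granulocyte-macrophage colony-stimulating factor receptors, at -4.22 ± 0.71, adjusted p = 6.84e-04, Il21r at -2.33 ± 0.29, adjusted p = 6.48e-05 and the feedback inhibitor Socs3 at -2.44 ± 0.43, adjusted p = 0.00107. In the TNF receptor family 3 of 13 tested were higher and 3 lower, 23.1% each way, against 8.35% and 8.95% of all genes. Tnfrsf9, the co-stimulatory receptor 4-1BB, differed by 3.76 ± 0.37, adjusted p = 6.76e-06, and Tnfrsf25, the DR3 receptor of resting T cells, by -5.26 ± 0.25, adjusted p = 3.30e-09. Tnfrsf9 was the 1 higher call of that family left without NK array 1, NK array 2, naive CD4 array 1 or naive CD8 array 2.

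Adhesion genes moved both ways. Of 33 tested, 10 were higher (30.3%, against 8.35% of all genes) and 6 lower (18.2%, against 8.95%). The other 17 did not pass, and the median difference was 0.62. Itgax, the CD11c chain, read 11.40 and 11.23 in the NK arrays, against 5.19 and 5.63 in the naive CD4 and 4.78 and 5.06 in the naive CD8 arrays, a difference of 6.15 ± 0.36, adjusted p = 2.76e-08. Itgam, the CD11b chain of mature NK cells, with 1 gene listed between it and Itgax on chromosome 7, read 5.38 and 5.34 in the NK arrays, against 2.55 and 2.53 in the naive CD4 and 2.53 and 2.52 in the naive CD8 arrays. NK values for it were near 5, and the difference was 2.83 ± 0.25, adjusted p = 2.10e-06. The beta chains Itgb1 and Itgb2 were higher by 2.52 ± 0.56, adjusted p = 0.00523 and 2.03 ± 0.46, adjusted p = 0.00585, each a call lost without NK array 1. Rap1gap2, a regulator of the small GTPase RAP1, differed by 5.68 ± 0.59, adjusted p = 9.62e-06, and Cd9, a tetraspanin, by 3.53 ± 0.41, adjusted p = 2.56e-05. Cd44, an adhesion receptor that rises on experienced T cells, differed by 2.02 ± 0.26, adjusted p = 8.59e-05. Itgae, the CD103 chain, differed by -2.17 ± 0.54, adjusted p = 0.0105, and lost its call without NK array 1. Without that array 6 members of the list were called higher.

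Enzymes that build surface glycans included some of the largest differences. Of 23 tested, 6 were higher (26.1%, against 8.35% of all genes) and 4 lower (17.4%, against 8.95%). The other 13 did not pass, and the median difference was 0.07. St8sia1, the synthase of ganglioside GD3, read 2.85 and 3.03 in the NK arrays, against 10.48 and 10.13 in the naive CD4 and 9.67 and 9.86 in the naive CD8 arrays, at -7.10 ± 0.42, adjusted p = 3.22e-08. St6gal1, which adds sialic acid to N-glycans, differed by -5.73 ± 0.54, adjusted p = 4.05e-06. Gcnt1, a core-2 branching enzyme that prepares selectin ligands, was higher by 4.18 ± 0.37, adjusted p = 2.23e-06. Without NK array 1, 2 members were called higher. Among 18 S100, annexin and galectin genes 5 were higher (27.8%, against 8.35% of all genes) and 13 did not pass, with a median of 0.60. Anxa1 and Anxa2, membrane-binding proteins of effector lymphocytes, differed by 4.56 ± 0.70, adjusted p = 3.46e-04 and 4.69 ± 0.57, adjusted p = 4.04e-05. These annexins were the 2 members still called without NK array 1, without NK array 2 or without naive CD8 array 2, and 3 were called without naive CD4 array 2 or naive CD8 array 1. Without naive CD4 array 1, 3 members were called lower.

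Regulators of small GTPases and actin differed at 11 of 41 tested. Of these 7 were higher (17.1%, against 8.35% of all genes) and 4 lower (9.76%, near the 8.95% of all genes). Plek, the pleckstrin of blood cells, read 14.58 and 14.26 in the NK arrays, against 9.08 and 9.72 in the naive CD4 and 10.36 and 10.01 in the naive CD8 arrays, at 4.63 ± 0.74, adjusted p = 4.62e-04. Myo1f, an unconventional myosin, differed by 3.03 ± 0.32, adjusted p = 1.05e-05, and Coro2a, a coronin, by 3.03 ± 0.35, adjusted p = 2.98e-05. Rgs10, which shortens signals of G-protein-coupled receptors, read 3.79 and 2.68 in the NK arrays, against 10.37 and 10.41 in the naive CD4 and 10.63 and 10.64 in the naive CD8 arrays. The NK arrays were at background, and the difference was -7.28 ± 0.61, adjusted p = 1.26e-06. Rhoh, a GTPase without catalytic activity that T-cell receptor signals need, differed by -2.74 ± 0.27, adjusted p = 6.61e-06. Without NK array 1, 2 members were called lower. Among 8 GIMAP GTPases, which support lymphocyte survival, Gimap5 was higher by 3.88 ± 0.73, adjusted p = 0.0017 and Gimap9 by 1.09 ± 0.26, adjusted p = 0.00947. Gimap9 lost its call without either NK array, and 6 members did not pass.

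Interferon response genes were lower in NK cells at 12 of 26 tested (46.2%, against 8.95% of all genes). NK cells were higher at 1 (3.85%, against 8.35%), 13 were not called, and the median difference was -0.50. Ifi27l2a, induced by type I interferon, read 5.30 and 4.42 in the NK arrays, against 11.79 and 12.26 in the naive CD4 and 12.85 and 11.92 in the naive CD8 arrays, a difference of -7.35 ± 0.54, adjusted p = 3.01e-07. Oas2, which makes the activator of RNase L, differed by -5.02 ± 0.34, adjusted p = 1.21e-07, and Isg20, an exonuclease, by -4.82 ± 0.64, adjusted p = 9.48e-05. Ifit1, an RNA-binding antiviral protein, differed by -5.26 ± 1.22, adjusted p = 0.00733, a call lost without NK array 2. Usp18, a feedback inhibitor of the interferon receptor, differed by -2.08 ± 0.41, adjusted p = 0.00231. Gbp3, a guanylate-binding protein, was the member called higher, by 1.36 ± 0.43, adjusted p = 0.0407, and the call was lost without either NK array or without an array numbered 2 of either naive type. Without NK array 2, 7 members were called lower. Transcripts of antigen-presenting cells were also higher on the naive arrays, as given below, and their part in this result was not tested.

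**Figure D4:**
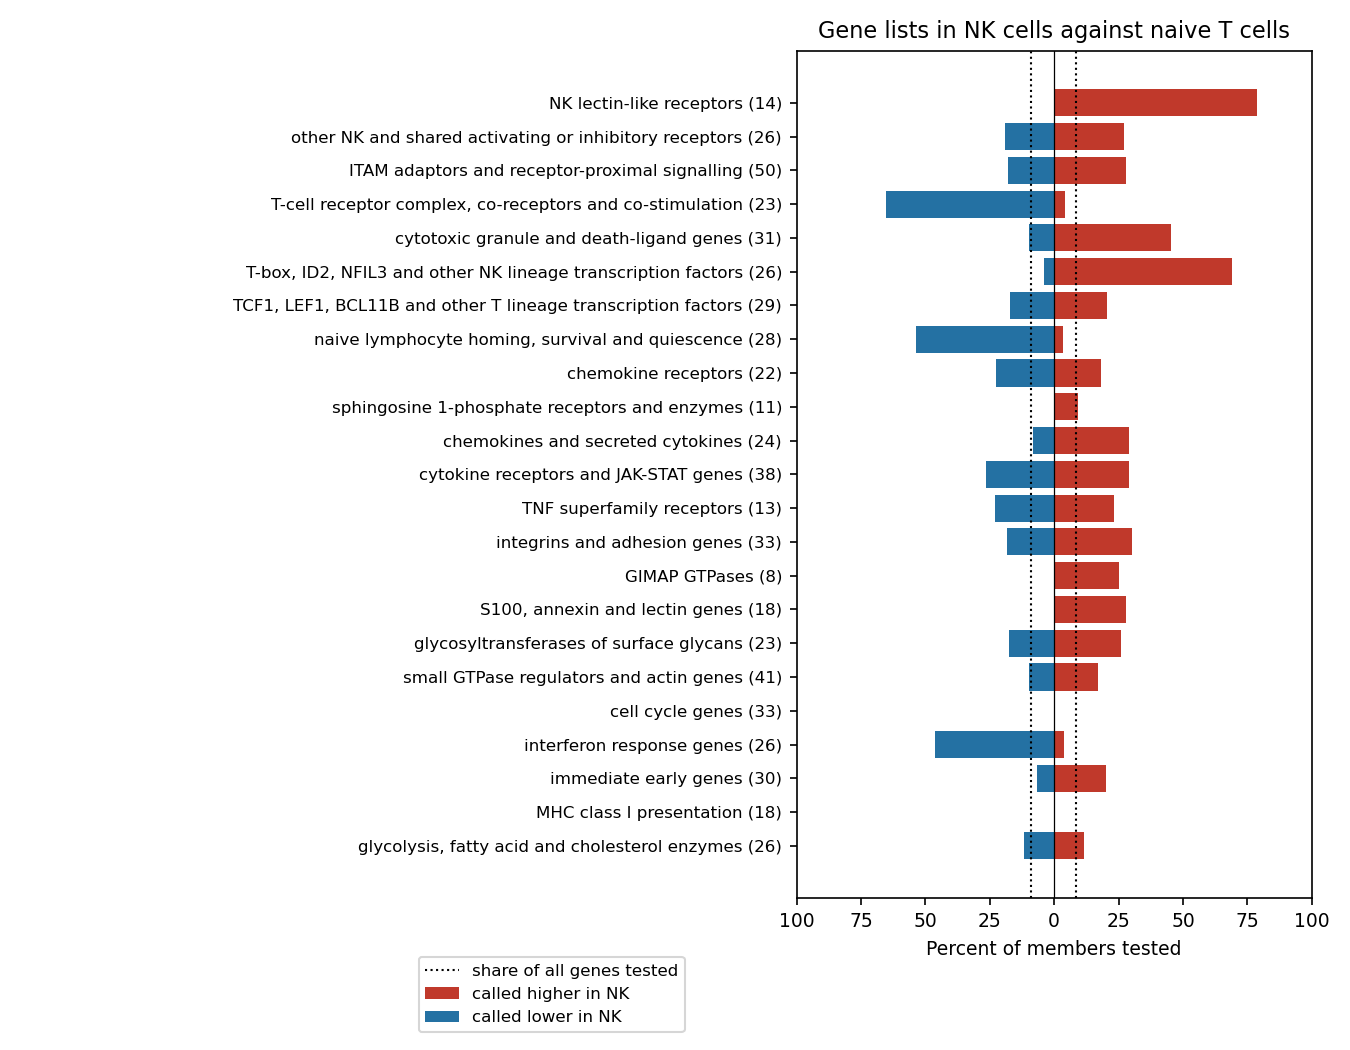
Percent of the tested members of 23 gene lists called higher (red, to the right) and lower (blue, to the left) in NK cells against naive T cells, with the number tested in brackets and dotted lines at the shares over all 9810 genes. Lectin-like receptors (78.6% higher) and NK lineage factors (69.2% higher) extend farthest to the right, and the T-cell receptor list (65.2% lower), the homing list (53.6% lower) and the interferon list (46.2% lower) to the left, while the cell cycle and MHC class I lists have no bar.

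Of 33 cell cycle genes tested 0 were called either way, against 17.3% of all genes, with a median difference of -0.21. Mki67, a marker of cycling cells, read 11.62 and 11.80 in the NK arrays, against 12.67 and 11.20 in the naive CD4 and 12.56 and 11.23 in the naive CD8 arrays, with wide spread and overlap. MHC class I presentation had 0 of 18 called and a median of -0.13. B2m, the light chain of MHC class I, was at 15.19 and 15.21 in the NK arrays and 14.68 to 15.03 in the naive arrays. The limma tests of these lists had 2 and 5 members at an unadjusted p under 0.05. Leaving out single arrays gave at most 1 cell cycle and 2 MHC class I calls. Of 26 metabolic enzymes tested 3 were higher and 3 lower, 11.5% each way, near the 8.35% and 8.95% of all genes. Ldhb, a lactate dehydrogenase chain, read 5.38 and 5.64 in the NK arrays, against 10.03 and 11.03 in the naive CD4 and 9.15 and 8.79 in the naive CD8 arrays, at -4.24 ± 0.31, adjusted p = 3.06e-07, and Sqle, an enzyme of cholesterol synthesis, differed by -3.41 ± 0.48, adjusted p = 1.63e-04. The 3 metabolic genes called higher, Pfkp, Tpi1 and Abca1, all lost their calls without NK array 1, NK array 2, naive CD4 array 1 or naive CD8 array 2. Immediate early genes were higher at 6 of 30 (20.0%, against 8.35% of all genes) and lower at 2 (6.67%, against 8.95%). Their median was -0.05, and 0 were lower without NK array 2. Fosl2, an AP-1 member, differed by 3.10 ± 0.59, adjusted p = 0.00179, and Fos by -3.64 ± 0.86, adjusted p = 0.00804, a call lost without NK array 2. Without NK array 1, Fosl2 was the 1 higher call of that list.

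Several genes of the largest differences belonged to none of the lists. Styk1, a membrane-bound kinase-like protein, read 13.72 and 13.82 in the NK arrays, against 4.65 and 4.37 in the naive CD4 and 4.43 and 4.61 in the naive CD8 arrays, at 9.26 ± 0.23, adjusted p = 3.64e-12. Clnk, an adaptor related to SLP-76, was at background on all naive arrays and differed by 7.33 ± 0.16, adjusted p = 2.00e-12. Klhl30, a kelch family gene, read 10.90 and 10.81 in the NK arrays, against 2.50 and 2.45 in the naive CD4 and 2.47 and 2.48 in the naive CD8 arrays, at 8.38 ± 0.14, adjusted p = 3.36e-13. Clnk and Klhl30 could be tested only through the NK arrays, so their calls were nearly fixed by the filter. Vegfc, a growth factor of lymphatic vessels, and Arap3, a regulator of small GTPases, were higher by 7.52 ± 0.50, adjusted p = 1.21e-07 and 7.51 ± 0.38, adjusted p = 7.47e-09. On the naive side, Tdrp read 2.79 and 2.51 in the NK arrays, against 11.32 and 11.20 in the naive CD4 and 11.84 and 11.68 in the naive CD8 arrays, at -8.86 ± 0.49, adjusted p = 1.55e-08. Igfbp4, a binding protein of insulin-like growth factors, differed by -8.05 ± 0.22, adjusted p = 8.36e-12, and Dpp4, the CD26 peptidase of the T cell surface, by -7.06 ± 0.51, adjusted p = 2.93e-07. Camk4, a calcium-dependent kinase of T cells, read 3.84 and 4.59 in the NK arrays, against 11.50 and 12.0 in the naive CD4 and 10.90 and 11.20 in the naive CD8 arrays, at -7.19 ± 0.24, adjusted p = 7.73e-11. Tlr1, a receptor for bacterial lipopeptides with TLR2, differed by -8.37 ± 0.81, adjusted p = 5.19e-06, and its B cell mean of 13.75 was above that of the naive T cells. Lypd6b and Fam169b differed by -7.88 ± 0.53, adjusted p = 1.23e-07 and -7.30 ± 0.48, adjusted p = 1.10e-07. The 30 genes ranked largest in the comparison, 15 on each side, were called under each of 20 alternative settings, except that Camk4 was fitted under 19 of them and called under these 19. Probe sets of the Klra family, among them Klra8, were passed over in that ranking.

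The naive types differed from each other in how far they lay from NK cells. Naive CD8 T cells were higher than naive CD4 T cells at 151 genes, 1.54% of those tested, and lower at 78, or 0.795%, which makes 229 genes or 2.33% in all. These counts take no account of features that the naive arrays share by number, given below. Several genes of NK cells lay between. Gzma differed by 7.20 ± 1.13, adjusted p = 0.00311 in naive CD8 against naive CD4 T cells. Klrc1 read 13.16 and 13.54 in the NK arrays, against 3.23 and 3.22 in the naive CD4 and 7.25 and 6.05 in the naive CD8 arrays, a naive CD8 minus naive CD4 difference of 3.43 ± 0.51, adjusted p = 0.0021. S1pr5 differed by 3.59 ± 0.67, adjusted p = 0.0108 in the same direction. Baiap3, a gene of vesicle exocytosis, read 11.36 and 10.85 in the NK arrays, against 1.99 and 2.77 in the naive CD4 and 8.69 and 9.72 in the naive CD8 arrays. NK cells exceeded its naive CD8 level by 1.90 (limma adjusted p = 0.013), and its naive CD4 level was at background. The naive CD8 minus naive CD4 difference was 6.83 ± 0.48, adjusted p = 1.74e-06. As a check of the labels, Cd8a and Cd8b1 were higher in naive CD8 T cells by 8.36 ± 0.31, adjusted p = 2.85e-09 and 9.18 ± 0.26, adjusted p = 2.84e-10. Itgae, higher in naive CD8 T cells by 6.44 ± 0.62, adjusted p = 5.01e-05, read 5.77 and 6.87 in the NK arrays, 5.26 and 5.29 in the naive CD4 and 11.47 and 11.95 in the naive CD8 arrays.

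Other genes were nearer to the NK level in naive CD4 than in naive CD8 T cells. Maf, a factor of helper T cells and innate lymphocytes, read 10.56 and 10.72 in the NK arrays, against 11.49 and 11.15 in the naive CD4 and 5.74 and 4.56 in the naive CD8 arrays. Naive CD4 T cells were slightly above NK cells and naive CD8 T cells far below, with a naive CD8 minus naive CD4 difference of -6.17 ± 0.88, adjusted p = 0.00152. Zbtb16, the PLZF factor of innate-like lymphocytes, read 7.15 and 7.42 in the NK arrays, against 6.62 and 7.32 in the naive CD4 and 2.28 and 1.85 in the naive CD8 arrays, at -4.91 ± 0.51, adjusted p = 8.80e-05. Its NK and naive CD4 arrays overlapped, and both naive CD8 arrays were at background. St8sia6, a sialyltransferase, and Gpm6b, a membrane protein of the proteolipid family, were lower in naive CD8 than in naive CD4 T cells, with naive CD8 minus naive CD4 differences of -6.56 ± 0.60, adjusted p = 2.90e-05 and -5.29 ± 0.67, adjusted p = 5.12e-04. Pdlim4, a cytoskeletal adaptor, differed by -4.51 ± 0.25, adjusted p = 2.23e-07. Counts between the naive types depended on single arrays and on the treatment of array numbers. A fit of the 6 arrays alone gave 48 higher and 28 lower calls, and 12 and 7 with the array number as a block. Whether the single genes named here kept their calls under these settings is not given. Both naive arrays 1 carried the Y-linked genes and both naive arrays 2 the haemoglobin signal, and leaving out both arrays 1 gave 53 higher and 48 lower calls. The higher calls numbered 73 without naive CD4 array 1, 280 without naive CD4 array 2 and 87 without naive CD8 array 1, and the lower calls 35 without naive CD8 array 1.

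Genes higher in NK cells did not all have their highest mean in NK cells among the 10 types. The same counts over all genes tested are not given here, so those below only describe the called sets. Of the 819, the NK mean was the highest of the 10 types for 337. The highest mean was in granulocytes for 127, in long-term hematopoietic stem cells (LT-HSC) for 100, in nucleated erythrocytes for 95, in monocytes for 88 and in B cells for 49. The activated T cells of the series had the highest mean for 16 of these genes in the CD8 and 6 in the CD4 group. S1pr5 had a monocyte mean of 11.08, Arap3 one of 13.76, and Vegfc and Klf12 LT-HSC means of 9.74 and 9.73. Styk1 reached 8.69 in granulocytes, and Ccl3 9.32 in activated CD8 T cells. For Klre1, Klrb1a, Klrk1 and Ncr1 the highest mean outside NK cells was 3.39, 4.64, 2.60 and 2.32. Of the 878 genes lower in NK cells, 264 had their highest mean in a naive T cell group and 191 in activated CD8 T cells.

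Markers of other cell types moved with some results. Genes of antigen-presenting cells were higher on all 4 naive arrays than on either NK array. H2-Ab1, an MHC class II chain, read 6.65 and 4.41 in the NK arrays, against 9.50 and 11.22 in the naive CD4 and 10.53 and 11.69 in the naive CD8 arrays. H2-Aa, its partner, read 10.02 and 8.29 in the NK arrays, against 12.55 and 13.40 in the naive CD4 and 12.62 and 13.26 in the naive CD8 arrays. Cd74, their chaperone, read 6.59 and 4.56 in the NK arrays, against 8.94 and 9.98 in the naive CD4 and 9.80 and 10.71 in the naive CD8 arrays. The differences were -5.21 ± 0.82, adjusted p = 4.40e-04, -3.80 ± 0.55, adjusted p = 1.98e-04 and -4.28 ± 0.76, adjusted p = 0.00114. Of 8 dendritic cell markers tested 6 were lower in NK cells and 1, Itgax, higher, and the mean of the list was 4.62 to 5.08 on the NK arrays, against 6.10 to 7.23 on the naive CD4 and 6.37 to 6.94 on the naive CD8 arrays. Siglech, a marker of plasmacytoid dendritic cells, read 4.89 and 6.94 in the naive CD4 arrays. Of 9 B cell markers tested, 1 was called lower in NK cells (11.1%, against 8.95% of all genes) and 8 did not pass. The 1 called was Ighm, at -1.98 ± 0.57, adjusted p = 0.0254, a call lost without NK array 2, naive CD4 array 2 or either naive CD8 array. Cd79a was at background on all 6 arrays.

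Of 9 monocyte or macrophage markers tested 1 was higher in NK cells (11.1%, against 8.35% of all genes) and 3 lower (33.3%, against 8.95%). Ms4a6c and Mpeg1 differed by -4.55 ± 0.58, adjusted p = 6.69e-05 and -5.17 ± 1.21, adjusted p = 0.00752, the second a call lost without NK array 2. Csf1r, the macrophage growth factor receptor, read 11.42 and 7.30 in the NK arrays, against 9.44 and 10.21 in the naive CD4 and 8.64 and 7.91 in the naive CD8 arrays, and Lyz2, lysozyme, 9.28 and 4.29 in the NK arrays, against 5.09 and 9.32 in the naive CD4 and 5.97 and 7.03 in the naive CD8 arrays. NK array 1 exceeded NK array 2 by more than 4 units in both, and neither was called. Cd14 was at background on all arrays. The mean of the list was 5.72 to 7.76 on the NK arrays, 7.36 to 8.33 on the naive CD4 and 6.92 to 7.40 on the naive CD8 arrays. Of 11 granulocyte markers 0 were called with limma (0 at an unadjusted p under 0.05), and 4 were lower in NK cells without naive CD4 array 1. Elane, Mpo and Camp were at background on all 6 arrays, and S100a8 read 3.33 and 3.14 in the NK arrays, against 3.45 and 10.75 in the naive CD4 and 3.32 and 6.49 in the naive CD8 arrays. The part of these cells in the genes called lower in NK cells was not tested. Without NK array 2, 1 monocyte or macrophage marker was called lower and 2 higher.

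Lists of other lymphocytes and precursors share members with the pathway lists above. Over all genes tested, 8.35% were called higher and 8.95% lower in NK cells. Of 9 markers of NKT or memory T cells 5 were higher in NK cells (Klrg1, Eomes, Zbtb16, Il2rb and Cd44), 2 were lower (Cd3e and Cxcr6) and Cxcr3 and Ccl5 did not pass. The mean of that list was 10.06 to 10.08 on the NK arrays, against 7.48 to 7.80 on the naive CD4 and 8.34 to 9.10 on the naive CD8 arrays. The naive CD8 arrays, which also read higher for Gzma and Nkg7, were thus above the naive CD4 arrays, while Cd44 read 8.82 and 9.32 in the naive CD4 and 8.48 and 8.28 in the naive CD8 arrays. The part of memory or NKT cells in the cytotoxic genes of the naive CD8 arrays was not tested. Of 9 markers of other innate lymphoid cells 4 were higher (Rora, Zbtb16, Gata3 and Kit) and 3 lower (Il7r, Cxcr6 and Il17rb), and the list mean was 7.60 to 7.71 on the NK arrays, against 7.44 to 7.80 on the naive CD4 and 6.23 to 6.61 on the naive CD8 arrays. Without NK array 1, 1 of these was called lower. Prdm1 and Xbp1 were the members called higher of 6 plasma cell markers. Kit and Meis1 were higher and Procr lower among 7 stem or progenitor markers, with Cd34 at background on all 6 arrays. Gp1bb was higher among 6 platelet markers and Tfrc lower among 5 erythroid markers. The calls of Procr and Tfrc were each lost without either NK array, among other settings, and the 1 CD4 lineage marker tested, Zbtb7b, did not pass.

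**Figure D5:**
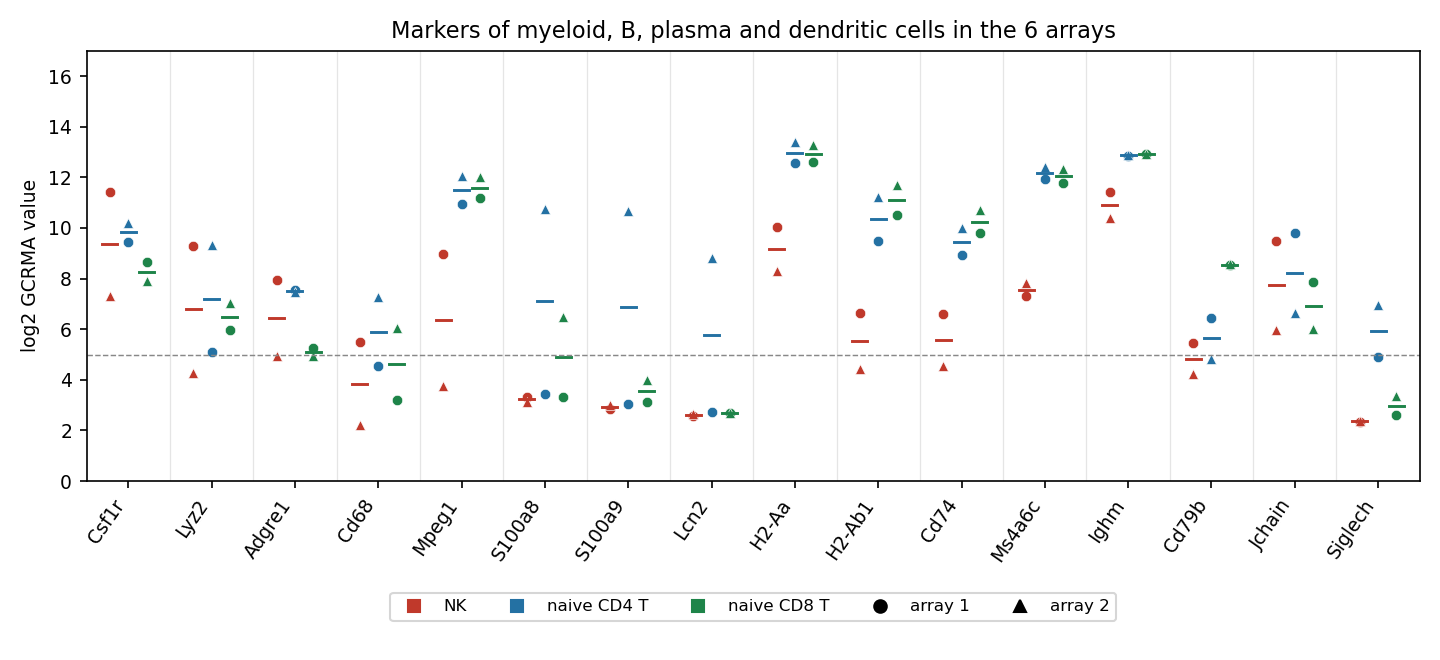
Log2 GCRMA values of 16 markers of myeloid, granulocyte, antigen-presenting, B and plasma cells on each of the 6 arrays, with NK cells in red, naive CD4 T cells in blue, naive CD8 T cells in green, circles for arrays 1, triangles for arrays 2, bars for means and a dashed line at 5. H2-Aa, H2-Ab1 and Cd74 are lower on both NK arrays than on each naive array, Csf1r and Lyz2 differ between the NK arrays, and S100a8, S100a9 and Lcn2 are high on naive CD4 array 2.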

How the data were processed

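Expression was measured on Affymetrix Mouse430_2 arrays, and the 6 arrays compared are part of a fit on all 20. The deposited values are log2 expression values that the authors made with GCRMA, per the submitters' processing notes. GCRMA corrects background with probe sequence and normalizes between arrays, and its version is not given in the sources used here. No further normalization was applied. For each of 18193 genes, named through the platform annotation, the single-gene probe set with the highest mean over the 20 arrays was used, and 932 of 45101 probe sets carried several symbols. Testing required a log2 value above 5 on at least 2 arrays, which 9810 genes met and 8383 did not. Some T cell genes, such as Tcf7 and Lck, are not analysed here. Array medians over all probe sets were 3.08 to 3.21, and the number of arrays limits the precision.

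Groups came from the sample titles and, for 1 array, its source name. A mean per cell type was fitted with limma 3.58.1 in R 4.3.3 (lmFit and eBayes, 10 residual degrees of freedom), and NK cells were contrasted with the mean of both naive types and with each of them. p-values measure the spread between pools of 4 samples, which the labels call biological replicates, not between single mice. The text names the 15 largest differences on each side of NK against naive T cells among called genes whose arrays do not overlap, passing over the Klra family, Gm, Rik, LOC and BC symbols and antigen receptor segments, 5 on each side between the naive types, and members of gene lists by role. Genes and lists were chosen with earlier results of these data known, and the lists share some members. For genes named by rank, 23 of 23 further probe sets with an array above 5 moved the same way, and 128 of 130 for called list members. These counts compare the direction alone. Levels and sizes could differ between probe sets, as for Klra7, with 2.78 on the probe set used and 9.69 on its other. Alternatives changed the arrays fitted, normalization, filter, probe set rule, weights and replicate block and left out arrays. The method was tested on simulated data. Promoter windows of 250 bases came from a RefSeq table for GRCm38.p6 and were searched for 4 motifs on both strands.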

Additional observations from a re-analysis of the deposited data

Results flagged for a closer look

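For 3 genes among the largest NK differences, the difference was unequal against naive CD4 and naive CD8 T cells, by the test of the naive CD8 minus naive CD4 difference in the same limma fit. Gzma, granzyme A, differed by 7.20 ± 1.13, adjusted p = 0.00311 between the naive types, so that NK cells exceeded naive CD4 T cells by 11.57 and naive CD8 T cells by 4.37. S1pr5 differed by 3.59 ± 0.67, adjusted p = 0.0108, with NK cells above naive CD4 T cells by 10.46 and above naive CD8 T cells by 6.88. Klrc1 differed by 3.43 ± 0.51, adjusted p = 0.0021, with NK differences of 10.13 and 6.70 against naive CD4 and naive CD8 T cells. Naive CD8 array 1 read above naive CD8 array 2 for each of the 3, by the widest gap at Gzma.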

How the results depend on the processing

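The counts of genes called in NK cells against naive T cells kept within 1.5 times of 819 higher and 878 lower under 19 of 20 alternative settings. Leaving out single arrays gave 492 to 869 higher and 591 to 902 lower calls. The lowest higher count was that without NK array 1, and 475 of its genes were among the 819. Against naive CD4 T cells, the same settings gave 460 to 796 higher and 441 to 626 lower calls, and leaving out both naive arrays numbered 1 gave 487 higher. Against naive CD8 T cells they gave 442 to 727 higher and 631 to 965 lower, and leaving out both naive arrays numbered 2 gave 475 and 640. Between the naive types, leaving out single arrays gave 73 to 280 higher and 35 to 90 lower calls in naive CD8 T cells, leaving out both arrays numbered 1 gave 53 and 48, and a fit of the 6 arrays alone, which leaves 3 residual degrees of freedom, gave 48 and 28. The labels do not say that array numbers are shared between groups. Correlations of same-numbered deviations were -0.20 for NK and naive CD4, 0.03 for NK and naive CD8 and 0.12 for naive CD4 and naive CD8 arrays. The naive types did share the Y-linked signal on arrays 1 and the haemoglobin signal on arrays 2. With the replicate block the calls were 716 and 753 for NK cells against naive T cells and 12 and 7 between the naive types. Crossed numbers, chosen after the data were seen, gave 651 and 511 against naive CD4 T cells. Centring each array on its median moved the median difference to 0.005 and the higher share of calls to 51.8%, and quantile normalization to -0.12 and 41.6%, against 48.3%. Of the 248 named or listed genes called, 0 changed sign. Adgre1, not called at 0.13, was called lower at -1.37 without NK array 1 and higher at 1.62 without NK array 2, and Gnaq, not called at -0.04, was called higher at 1.04 with the mean of its probe sets. Of these 248, 142 kept their calls under each setting fitted and 106 lost them under at least 1. The 2 arrays per type and levels near background limit the precision.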

Other observations

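The lectin-like receptor genes lie together on mouse chromosome 6, and the interval from Klrb1a to Klra2 holds 92 genes in the RefSeq list. Of these 34 had a probe set of their own and 25 were tested. Some, such as Klre1 and Klrk1, could be tested only through the NK arrays. NK cells were higher at 13, among them Klrb1a, Klrb1f, Klre1, Klrk1, Klrc1 and Klra8 and 3 genes with other kinds of products or unnamed transcripts, Gabarapl1, BC035044 and BC064078. Clec7a, the Dectin-1 receptor of myeloid cells for fungal glucans, was the 1 gene lower. The 11 genes that did not pass include Cd69, the early activation antigen, Olr1 and Clec1b. Probe sets shared by near-identical genes went both ways. The set of Klra9 and Klra3 read 15.03 and 14.73 in the NK arrays, against 2.72 and 4.65 in the naive CD4 and 7.44 and 9.64 in the naive CD8 arrays. The set of H2-Q6, H2-Q8 and H2-Q4, nonclassical MHC class I genes, read 10.13 and 9.31 in the NK arrays, against 4.89 and 6.61 in the naive CD4 and 7.24 and 6.55 in the naive CD8 arrays. A set of H2-T23 and H2-T-ps lay the other way, at 13.97 and 13.91 in the NK arrays and 14.24 to 14.38 in the naive arrays.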
